A study of Mus musculus with 6 samples.

Results

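Ion channels are proteins that let chosen ions cross the cell membrane. The genes described here encode voltage-gated and related channels: the potassium channel families and their auxiliary subunits, the sodium channels, the CLC chloride channels and transporters, the hyperpolarisation-activated (HCN), sperm (CatSper) and transient receptor potential (TRP) channels, and Clca4a, a member of the calcium-activated chloride channel regulator family. Members were taken by name, as every gene whose platform symbol begins with Kcn, Hcn, Clcn, Catsper, Trpc, Trpm or Trpv, or with Scn followed by a digit, with Clca4a added. The rule gave 131 genes on 245 probes, of 17711 genes named on 46632 probes in all. A probe was kept for the comparison when its detection p, the array's own measure of signal over negative controls, fell below 0.05 for 3 or more of the 6 arrays. This left 74 channel probes for 56 channel genes, of 19563 probes and 10287 genes retained overall. The rule uses names, but it was written with earlier results of these data known, and Clca4a was added alone while 6 other Clca genes on the array were not, so its large value is a description and supports nothing about the set. The filter can let a gene in through the one group in which it is bright, and 4 of the 56 genes were above background in one group alone.

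In skeletal muscle fibres, sodium channels carry the action potential, potassium channels end it and hold the resting potential, and the chloride channel Clcn1 steadies the membrane against repeated firing. Inward rectifier potassium channels pass current near the resting potential, and some of them join a sulfonylurea receptor to form the ATP-sensitive channel that opens when the cell's energy falls. The sodium pump rebuilds the ion gradients that firing runs down. Muscle that is immature, regenerating or cut off from its nerve is known to express a different set of channels from mature innervated muscle.

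The series measured RNA of the vastus lateralis, a muscle of the quadriceps, with Illumina bead arrays for mouse, each sample on an array of its own. It set 3 wild type mice (Sample906, Sample872 and Sample923) against 3 mice that over-express FRG1 (Sample873, Sample874 and Sample871), a gene named after the region linked to facioscapulohumeral muscular dystrophy (FSHD). The labels give all 6 as C57Bl/6J females aged 4 weeks. They do not give the promoter or species of the transgene, the number of founder lines or the handling of single animals, so p-values here measure the spread between these samples only.

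The arrays had summed signals between 10537335 and 13062182 and between 17957 and 20000 probes above background, of which 65 to 71 were channel probes in wild type samples and 70 to 75 in transgenic samples. Normalized values correlated at 0.98 to 0.99 within each group and at 0.97 to 0.98 between groups, across probes. The only Frg1 probe was above background on 0 of the 6 arrays, so it gives no check of the genotype labels. Of 10 skeletal muscle identity genes, such as Ckm and Acta1, all 10 were retained, 0 rose and 4 fell. Their summed normalized intensity ran from 148560 to 158311 in wild type and from 129848 to 137635 in transgenic samples. The muscle was whole tissue, in which fewer cells of a type and less RNA per cell cannot be told apart. Among markers of other cells and states, 9 of 11 retained macrophage genes and 7 of 9 retained denervation and immature muscle genes rose, while 3 of 12 endothelial, 3 of 11 smooth muscle and pericyte, and 4 of 9 fibroblast and tendon genes fell. Over all retained genes 7.53% rose and 7.23% fell. Of the 4 retained genes of the Schwann cell and nerve list, all of Schwann cells or myelin, 0 passed the threshold. Their median log2 fold change was -0.40. Of the 6 retained neutrophil and mast cell genes 0 passed, but Sample871 stood apart: S100a8, a neutrophil protein, was at 10.21 there against 6.01 and 5.92 in the other transgenic samples and 5.07 to 5.16 in wild type. Results that rest on Sample871 are given without it too.

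Of the 56 channel genes, 6 rose in transgenic muscle (Clca4a, Catsper4, Kcne1l, Kcnma1, Kcna6 and Scn3a), 3 fell (Kcnc4, Kcna7 and Kcnab1) and 47 did not pass. The test was limma's moderated test on normalized log2 intensity, with Benjamini-Hochberg adjustment over all retained probes and a threshold of 0.05, and each gene was represented by its brightest probe. The 9 called genes are 16.1% of the 56, beside 14.8% of all retained genes. By direction, 10.7% of the channel genes were called higher beside a background of 7.53%, and 5.36% were called lower beside 7.23%. Without the 4 genes seen in one group alone, 5 of 52 were called, or 9.62%, with 5.77% higher and 3.85% lower. The background shares still include such genes, so they are no like comparison for these 52. The groups did not overlap for 18 channel genes (32.1%), with transgenic above wild type in 8 and below in 10. The background of such genes was 36.6%, of which 16.9% above and 19.8% below. The median log2 fold change (transgenic minus wild type throughout) was -0.08 over the channel genes and -0.03 over all retained genes. Over probes, 9 channel probes were higher and 4 lower, or 17.6% of 74, beside 13.8% of all probes called, 7.1% higher and 6.71% lower. Where arrays were scaled to a common median instead of quantile normalized, 8 channel genes were called higher and 1 lower, and the share of all called probes that were higher went from 51.4% to 79.1%.

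**Figure D1:**
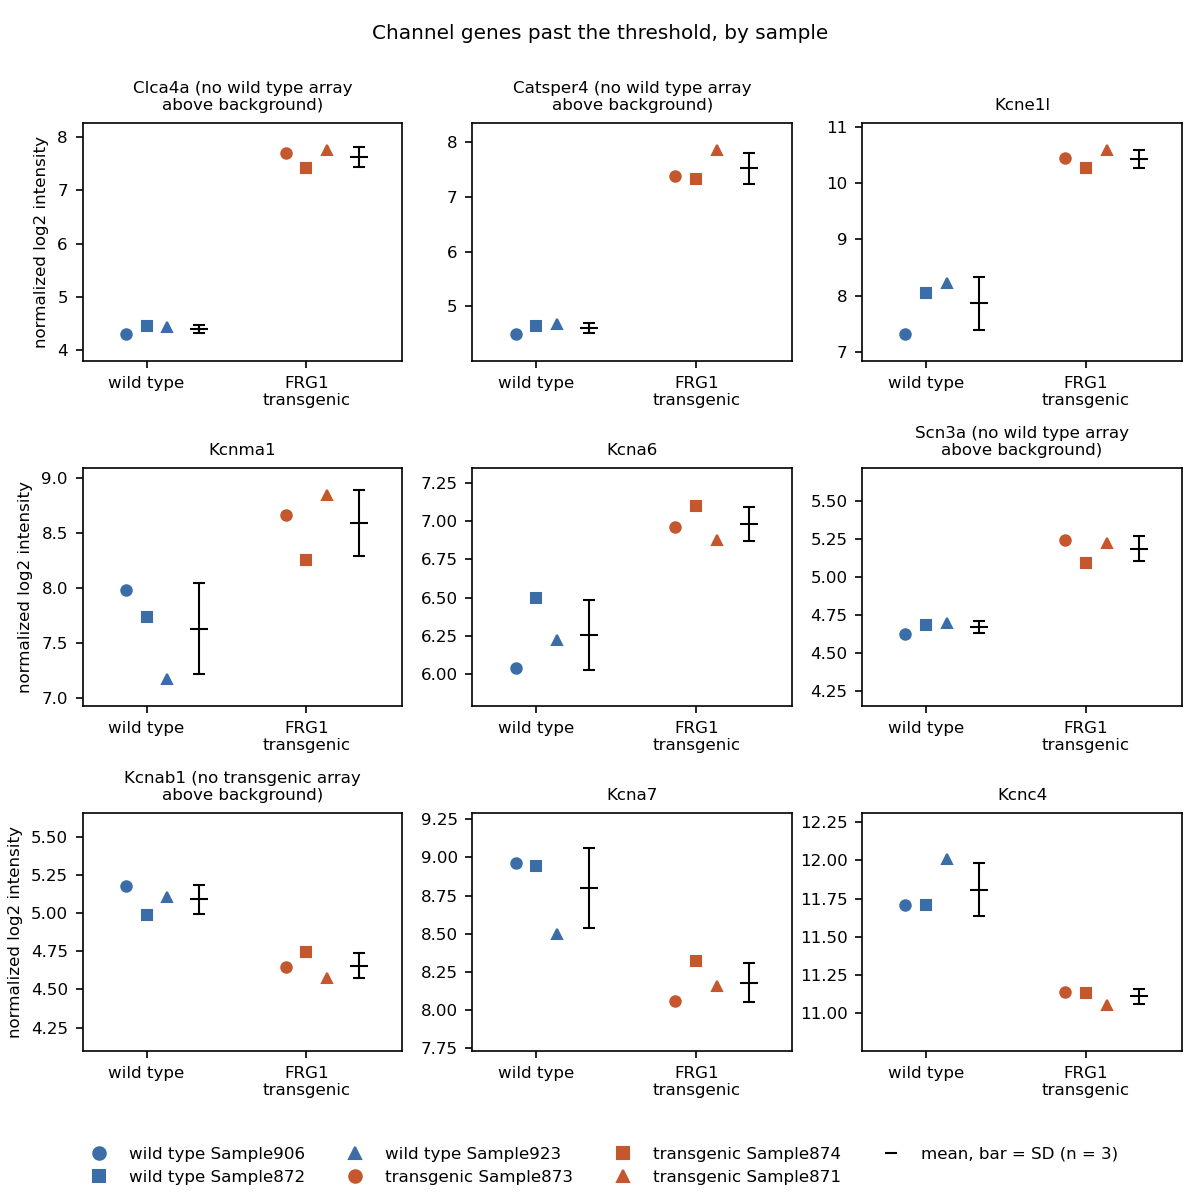
Normalized log2 intensity (y axis, a separate range for each panel) of the 9 called channel genes in the 3 wild type (blue) and 3 transgenic (orange) samples, with the group mean and SD. The groups do not overlap in any of the 9 panels, and for Clca4a, Catsper4, Scn3a and Kcnab1 all 3 arrays of one group lay below the detection limit.

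Clca4a, whose family regulates calcium-activated chloride current and is best known from secretory epithelia, was seen in transgenic muscle alone. Its log2 intensity on probe ILMN_2742695 was 4.30, 4.44 and 4.43 in wild type and 7.71, 7.42 and 7.75 in transgenic muscle. The probe was above background on 0 of 3 wild type and 3 of 3 transgenic arrays, and the groups stood far apart. Means were 4.39 ± 0.07 and 7.63 ± 0.18 (SD, n = 3 each), and transgenic muscle was at least 6.83-fold higher (limma adjusted p = 2.17e-06). A fold written as "at least" sets the bright group's mean against the detection limit of the dim group's arrays. It leaves out the spread between samples, so it is no confidence limit. Genes given in this way passed the filter through a single group, and their p-values are descriptions only. The other 2 Clca4a probes were below background on every wild type array. Of these, ILMN_2659889 was above background on 0 of 6 arrays and ILMN_2752464 on Sample873 alone, so a single probe carries the value. The platform holds 6 other Clca genes on 7 probes, of which 5 probes were above background on 0 arrays.

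Catsper4 encodes a pore subunit of the calcium channel of the sperm tail, and it too went from below background to a clear signal. Its log2 intensity was 4.50, 4.64 and 4.68 in wild type and 7.39, 7.33 and 7.85 in transgenic muscle. All 3 transgenic arrays and none of the wild type arrays were above background. The means of 4.60 ± 0.09 and 7.52 ± 0.28 (SD, n = 3 each) made it at least 6.34-fold higher in transgenic muscle (limma adjusted p = 8.19e-06). Catsper4 has 1 probe on the array. Catsper2, another pore subunit, was above background in both groups and had a log2 fold change of -0.00 ± 0.16 (SE, limma adjusted p = 0.992). Of the 9 CatSper genes on the array, 6 had no probe above background on any array.

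Kcne1l, listed under the name Kcne5 as well, encodes a single-span auxiliary subunit of the KCNE family, whose members change the gating of potassium channel pores. Its log2 intensity was 7.32, 8.05 and 8.21 in wild type and 10.46, 10.27 and 10.59 in transgenic muscle. Sample906 was the lowest wild type sample, and the groups were separated by more than the wild type spread. The means were 7.86 ± 0.48 and 10.44 ± 0.16 (SD, n = 3 each), a log2 fold change of 2.58 ± 0.21 (SE), or 5.96-fold (limma adjusted p = 0.0001). This was the largest change among channel genes above background on all 6 arrays. Kcne4, of the same family, had a log2 fold change of -0.31 ± 0.17 (SE) that did not pass (limma adjusted p = 0.275), and Kcne1, Kcne2 and Kcne3 were above background on no array.

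Kcne1l and Catsper4 were the 2 of the called channel genes whose RefSeq promoter window (GRCm38.p6, 250 bases before to 50 after the annotated start) holds the E-box CAGCTG, the form bound by myogenic bHLH factors, and they are shown because both were among the 3 largest increases. Each lies on the minus strand, Catsper4 at chr4:134227334-134227633 and Kcne1l at chrX:142306149-142306448. Sequences read 5′ to 3′ along the gene, with capitals for matches on either strand to CAGCTG, to the TATA box TATAAA or to the GC box GGGCGG.
Catsper4: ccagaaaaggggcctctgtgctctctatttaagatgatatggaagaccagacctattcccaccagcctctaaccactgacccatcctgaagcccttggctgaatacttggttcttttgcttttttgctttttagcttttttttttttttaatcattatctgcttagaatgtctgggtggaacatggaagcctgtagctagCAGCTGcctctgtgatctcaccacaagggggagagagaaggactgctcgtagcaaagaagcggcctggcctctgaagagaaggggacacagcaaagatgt
Kcne1l: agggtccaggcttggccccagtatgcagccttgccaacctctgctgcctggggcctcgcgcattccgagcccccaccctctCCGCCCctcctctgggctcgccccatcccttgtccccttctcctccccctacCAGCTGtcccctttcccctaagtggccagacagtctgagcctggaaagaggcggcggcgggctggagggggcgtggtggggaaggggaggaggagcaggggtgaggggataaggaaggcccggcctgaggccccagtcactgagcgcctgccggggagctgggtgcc
The E-box begins 50 bases before the start in Catsper4 and 117 bases before it in Kcne1l, and the other capitals in Kcne1l are a GC box on the opposite strand. CAGCTG stood in 2 of the 7 called genes with a promoter in the table and in 16.3% of all 32851 windows of this length, so the match is a description of these letters only.

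Kcnma1 encodes the pore of the large-conductance BK channel, which opens with both calcium and depolarisation. On its brightest probe, log2 intensity was 7.98, 7.73 and 7.17 in wild type and 8.67, 8.26 and 8.84 in transgenic muscle. The lowest transgenic value, in Sample874, lay above the highest wild type value, in Sample906. The means were 7.63 ± 0.41 and 8.59 ± 0.30 (SD, n = 3 each), a 1.95-fold increase (limma adjusted p = 0.0173). All 3 Kcnma1 probes rose, the others by 2.52-fold (adjusted p = 0.0048) and 1.66-fold (adjusted p = 0.00507). Without Sample873 or without Sample871, the brightest probe no longer passed (limma adjusted p = 0.0733 and 0.0753). BK channels are also carried by vascular smooth muscle together with Kcnmb1, its auxiliary subunit there, and the Kcnmb1 probe was above background on 0 of 6 arrays. In the smooth muscle and pericyte list, 0 of 11 retained genes rose and 3 fell. Its summed intensity ran from 10175 to 11098 in wild type and from 9848 to 10879 in transgenic muscle. That sum includes Des, also in the skeletal muscle identity list, at mean log2 intensities of 11.89 in wild type and 12.20 in transgenic muscle. The sum is therefore no measure of smooth muscle and pericytes alone. The part of smooth muscle or of other cells in the Kcnma1 result was not tested. The other calcium-activated subunit with muscle interest, Kcnn2, a small-conductance channel pore, had a log2 fold change of -0.47 ± 0.20 (SE) with overlapping groups (limma adjusted p = 0.147), and Kcnn3, of the same kind and known from denervated muscle, was not retained.

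Kcna6 encodes a Shaker-type delayed rectifier pore subunit best known from nerve. Its brightest probe had log2 intensities of 6.04, 6.50 and 6.22 in wild type and 6.96, 7.10 and 6.88 in transgenic muscle. The groups did not overlap, and the means of 6.25 ± 0.23 and 6.98 ± 0.11 (SD, n = 3 each) gave a 1.65-fold increase (limma adjusted p = 0.00967). A second probe rose 1.90-fold (limma adjusted p = 0.00083), with values of 5.73, 5.78 and 5.82 against 6.61, 6.76 and 6.76. The 2 remaining probes were near the detection limit and did not pass, at log2 fold changes of -0.27 and 0.01 (limma adjusted p = 0.315 and 0.970). Averaging all 4 probes gave a log2 fold change of 0.35 and took the gene out of the calls (limma adjusted p = 0.0721). Kcna1 and Kcna5, Shaker-type genes next to Kcna6 on chromosome 6, had log2 fold changes of -0.04 ± 0.18 and -0.26 ± 0.20 (SE), neither of which passed (limma adjusted p = 0.921 and 0.454). Of the 4 retained Schwann cell and nerve markers 0 passed, with summed intensities of 4934 to 6482 in wild type and 3087 to 5482 in transgenic muscle, and their part in the Kcna6 result was not tested.

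**Figure D2:**
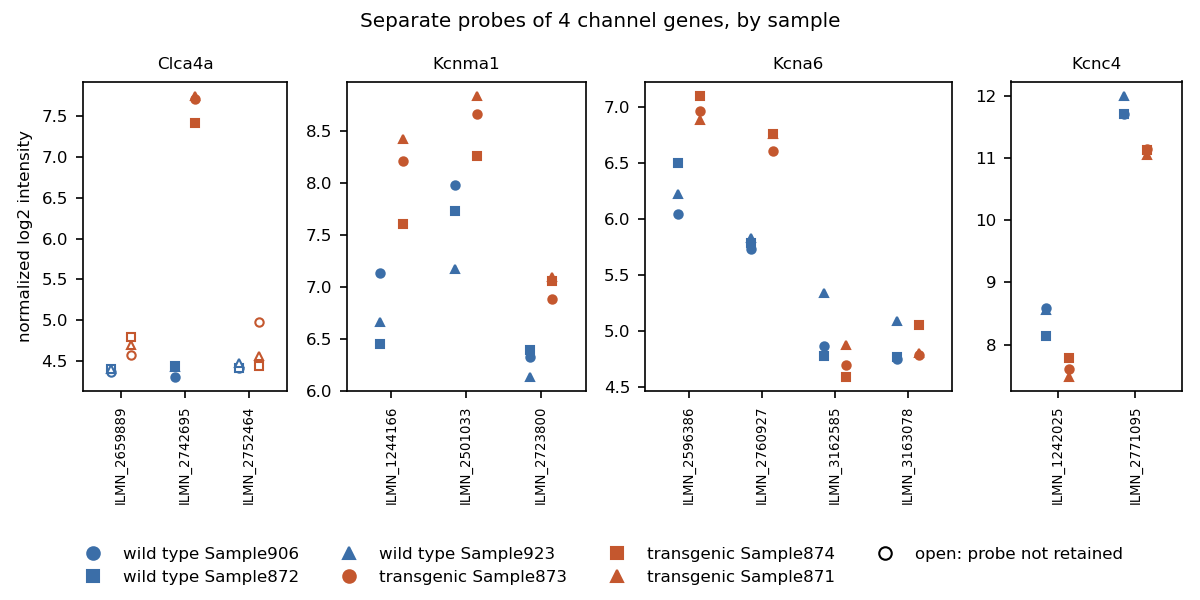
Normalized log2 intensity (y axis, a separate range for each gene) on each probe of Clca4a, Kcnma1, Kcna6 and Kcnc4 in the 6 samples, with open symbols for probes that were not retained. The 3 Kcnma1 probes were all higher and the 2 Kcnc4 probes both lower in transgenic muscle, whereas 1 of 3 Clca4a probes and 2 of 4 Kcna6 probes passed the threshold.

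Scn3a encodes a sodium channel pore subunit of the developing nervous system. On probe ILMN_1218700 its log2 intensity was 4.63, 4.69 and 4.70 in wild type and 5.24, 5.09 and 5.22 in transgenic muscle, with 0 of 3 and 3 of 3 arrays above background. The difference was small, at least 1.26-fold, and passed the threshold (limma adjusted p = 0.0163), but not without Sample873 or without Sample871 (limma adjusted p = 0.0777 and 0.0747). A second retained Scn3a probe had a log2 fold change of -0.06 ± 0.16 (SE, limma adjusted p = 0.847), and the mean of both did not pass (0.23, limma adjusted p = 0.227). Scn4b, an auxiliary beta subunit expressed in muscle and heart, was 7.59, 7.50 and 7.10 in wild type and 6.97, 6.91 and 6.99 in transgenic muscle. Its groups did not overlap, but the log2 fold change of -0.44 ± 0.15 (SE) did not pass (limma adjusted p = 0.0760). Without Sample923, the lowest wild type sample, it did (-0.59, limma adjusted p = 0.0107). That was 1 of 13 alternative settings, and in the others the limma adjusted p ran up to 0.418. The other beta subunit, Scn2b, likewise lay lower in every transgenic sample, with a log2 fold change of -0.38 ± 0.13 (SE, limma adjusted p = 0.0934). Scn2a, a pore subunit of central neurons, and Scn7a, the sodium-sensing channel of glia and other non-muscle cells, had log2 fold changes of 0.19 ± 0.15 and -0.02 ± 0.13 (SE) with overlapping groups (limma adjusted p = 0.458 and 0.943).

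The 3 genes that fell all encode subunits of voltage-gated potassium channels. Kcnc4 encodes a Shaw-type pore subunit with fast inactivation that is expressed in skeletal muscle. Its log2 intensity was 11.71, 11.71 and 12.01 in wild type and 11.14, 11.13 and 11.06 in transgenic muscle. The 3 transgenic samples were close together and all lay below wild type. The means of 11.81 ± 0.17 and 11.11 ± 0.05 (SD, n = 3 each) were 1.62-fold apart (limma adjusted p = 0.00633), and the second Kcnc4 probe fell too, by 1.74-fold (limma adjusted p = 0.00827). Kcnc1, of the same Shaw family, had a log2 fold change of 0.10 ± 0.15 (SE, 95% interval -0.23 to 0.44) with overlapping groups (limma adjusted p = 0.709).

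Kcna7, a Shaker-type pore subunit expressed in skeletal muscle and heart, had log2 intensities of 8.96, 8.94 and 8.50 in wild type and 8.06, 8.32 and 8.16 in transgenic muscle. Sample923 was the lowest wild type sample and still lay above the transgenic group. The means of 8.80 ± 0.26 and 8.18 ± 0.13 (SD, n = 3 each) were 1.54-fold apart (limma adjusted p = 0.0256). The call was lost without Sample906, Sample872, Sample873 or Sample871 (limma adjusted p = 0.0825, 0.0783, 0.108 and 0.0898) with median scaling (0.109) and with no detection filter (0.0784). Kcnab1, a beta subunit that speeds the inactivation of Shaker-type channels, was the faintest of the 3. Its log2 intensity was 5.18, 4.99 and 5.10 in wild type, above background on 3 of 3 arrays, and 4.65, 4.74 and 4.58 in transgenic muscle, above background on none. Wild type muscle was at least 1.24-fold higher (limma adjusted p = 0.0382), and leaving out any 1 of the 6 samples took its adjusted p above the threshold, to between 0.0526 and 0.147. Its sister beta subunit Kcnab2 lay higher in every transgenic sample, at a log2 fold change of 0.41 ± 0.15 (SE), and did not pass (limma adjusted p = 0.103).

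The promoter windows of Kcnc4 and Kcna7 are shown as those of the lowered pore subunits expressed in muscle, with the same source, window and capitals as above. Kcnc4 lies on the minus strand at chr3:107458849-107459148 and Kcna7 on the plus strand at chr7:45405710-45406009.
Kcnc4: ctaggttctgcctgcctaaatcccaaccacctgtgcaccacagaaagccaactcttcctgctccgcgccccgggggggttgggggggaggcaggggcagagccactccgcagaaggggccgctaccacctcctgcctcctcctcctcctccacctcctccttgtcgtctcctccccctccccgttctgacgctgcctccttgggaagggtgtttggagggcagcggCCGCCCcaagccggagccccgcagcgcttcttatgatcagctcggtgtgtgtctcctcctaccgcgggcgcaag
Kcna7: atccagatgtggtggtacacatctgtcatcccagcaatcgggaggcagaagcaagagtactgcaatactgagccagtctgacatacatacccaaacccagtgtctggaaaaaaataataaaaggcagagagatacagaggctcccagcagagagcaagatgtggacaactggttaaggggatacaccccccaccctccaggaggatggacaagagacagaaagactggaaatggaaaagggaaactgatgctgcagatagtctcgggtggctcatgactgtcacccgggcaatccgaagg
Neither window holds CAGCTG or TATAAA, and Kcnc4 holds a GC box on the opposite strand, a motif present in 35.7% of all windows and in 4 of the 7 called genes. The 2 windows differ in base composition, with 66.7% G and C in Kcnc4 and 50.3% in Kcna7.

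**Figure D3:**
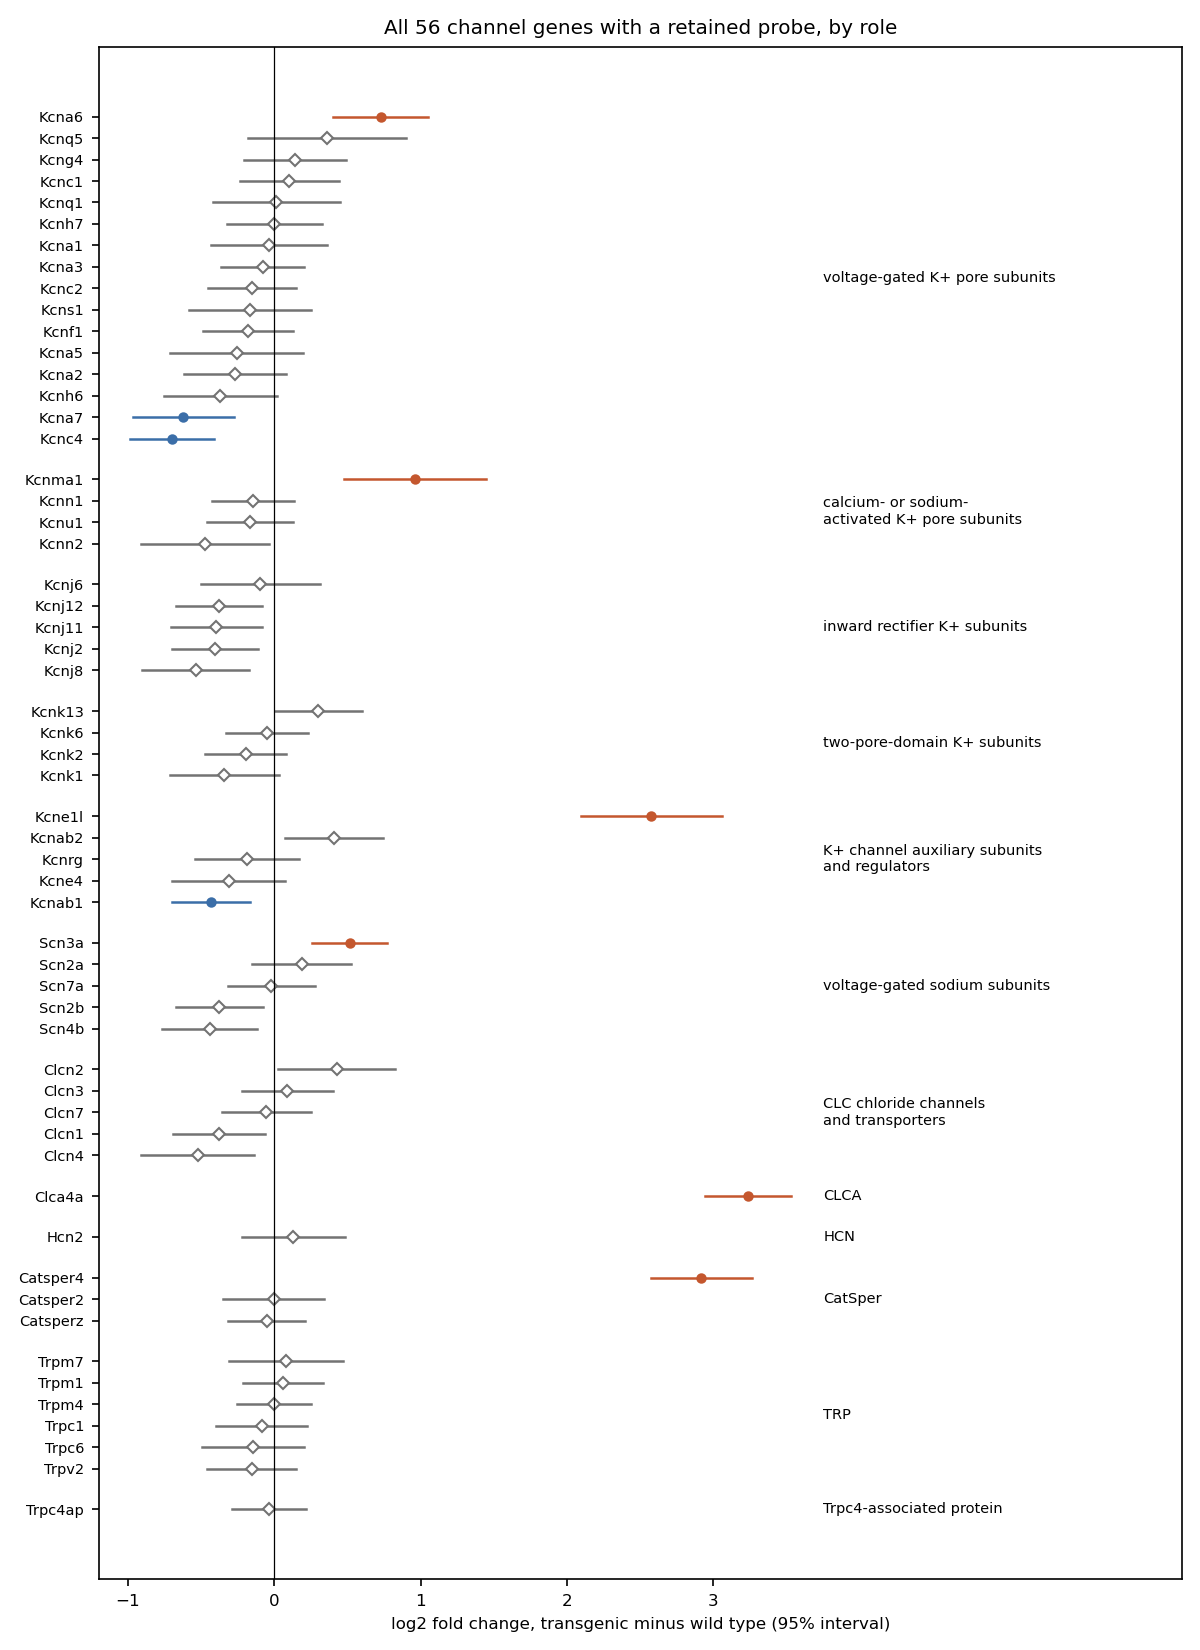
Log2 fold change (x axis, transgenic minus wild type) with its 95% interval for the 56 channel genes, ordered by role and size, in orange where higher, in blue where lower and in grey with open diamonds where the threshold was not passed. Most values lie between -0.7 and 0.5, and Clca4a, Catsper4 and Kcne1l stand above 2.5. For Clca4a, Catsper4, Scn3a and Kcnab1 the fitted value is drawn, which is no bound.

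Among the 16 voltage-gated potassium pore subunits, 1 rose (Kcna6), 2 fell (Kcnc4 and Kcna7) and 13 did not pass, with a median log2 fold change of -0.12. The share called was 18.8%, near the 14.8% of all retained genes. By direction it was 6.25% higher and 12.5% lower, beside 7.53% and 7.23% of all retained genes. The brightest probes of Kcna2, Kcnq5 and Kcng4, pore subunits of the Shaker, KCNQ and silent classes, had log2 fold changes of -0.27 ± 0.16, 0.36 ± 0.24 and 0.14 ± 0.16 (SE), each with overlapping groups. Another 17 genes of this class had no retained probe, and 15 of those were above background on no array, among them Kcnd1 and Kcnd2, whose family carries transient current in nerve and heart.

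No inward rectifier gene passed the threshold, beside 14.8% of all retained genes. In 4 of the 5, however, every transgenic sample lay below every wild type sample, beside 19.8% of all retained genes. All 5 fitted changes were negative, with a median of -0.39, beside -0.03 over all genes. The class is small, and it was singled out after its values were seen. Kcnj2, a pore of the classical inward rectifier that holds the resting potential, was 8.01, 7.72 and 8.01 in wild type and 7.53, 7.60 and 7.40 in transgenic muscle. The log2 fold change was -0.40 ± 0.13 (SE, 95% interval -0.70 to -0.11, limma adjusted p = 0.0697). Kcnj12, its close relative in the same channels, was 8.76, 9.09 and 8.82 against 8.61, 8.49 and 8.43, a log2 fold change of -0.38 ± 0.13 (SE, limma adjusted p = 0.0888). The unadjusted intervals of both genes exclude 0, but neither passed over the whole array. Kcnj2 passed in 2 of 13 alternative settings, without Sample872 (-0.50, limma adjusted p = 0.0490) and without background correction (-0.34, limma adjusted p = 0.0434).

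Kcnj11 encodes the pore of the ATP-sensitive channel of muscle fibres, and it was 6.98, 6.90 and 7.34 in wild type and 6.64, 6.70 and 6.70 in transgenic muscle. The log2 fold change was -0.39 ± 0.14 (SE, limma adjusted p = 0.0938), and Sample923 was the highest wild type sample. Kcnj8 encodes the ATP-sensitive pore of vascular smooth muscle and pericytes. It was 8.10, 8.38 and 8.30 against 7.43, 8.03 and 7.71, and Sample874 was the transgenic sample nearest to wild type. Its log2 fold change was -0.54 ± 0.16 (SE, 95% interval -0.90 to -0.17, limma adjusted p = 0.0579), and -0.69 without Sample874, which passed (limma adjusted p = 0.0276). Kcnj8 passed in 3 of 13 alternative settings, and in the others the limma adjusted p ran up to 0.208. Kcnj6, a G-protein-gated pore of neurons, overlapped between the groups, with 4.72, 5.07 and 5.49 in wild type and 4.88, 5.04 and 5.07 in transgenic muscle.

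Abcc9, the sulfonylurea receptor that pairs with these ATP-sensitive pores and lies beside Kcnj8 on chromosome 6, did fall. Its brightest probe was 9.24, 9.15 and 9.47 in wild type and 8.20, 8.53 and 8.35 in transgenic muscle. The means of 9.28 ± 0.17 and 8.36 ± 0.17 (SD, n = 3 each) were 1.90-fold apart (limma adjusted p = 0.00238). A second probe fell as well (-0.80, limma adjusted p = 0.00149), and the third retained probe had a log2 fold change of -0.11 that did not pass (limma adjusted p = 0.654). Of the 11 retained smooth muscle and pericyte markers, 3 fell beside Kcnj8 and Abcc9: Mylk, Lmod1 and Myh11 had log2 fold changes of -0.78, -0.63 and -0.62 (limma adjusted p = 0.00361, 0.0107 and 0.0231). The other 8 did not pass on their brightest probe, among them the pericyte markers Rgs5, Cspg4 and Pdgfrb at 0.06, -0.01 and -0.33. For Pdgfrb every transgenic sample lay below every wild type sample (limma adjusted p = 0.110). Over the 11 genes, 8 fitted changes were negative and 3 positive. The smooth muscle regulator Myocd was at 0.10 on its brightest probe. Its second retained probe was at -0.29 (limma adjusted p = 0.135), above background on 3 of 3 wild type and 0 of 3 transgenic arrays. A second Rgs5 probe of similar brightness did fall, at -0.60 (limma adjusted p = 0.0133). The wild type SD was 0.83 on the brightest Rgs5 probe and 0.10 on the second. The list's summed intensities, given with Kcnma1 and including Des, overlapped between the groups. Of the endothelial list, Cldn5, Eng and Cdh5 fell, and the list's summed intensity ran from 8709 to 9502 in wild type and from 6348 to 7775 in transgenic muscle. The part of these cells in the Kcnj8 and Abcc9 values was not tested.

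**Figure D4:**
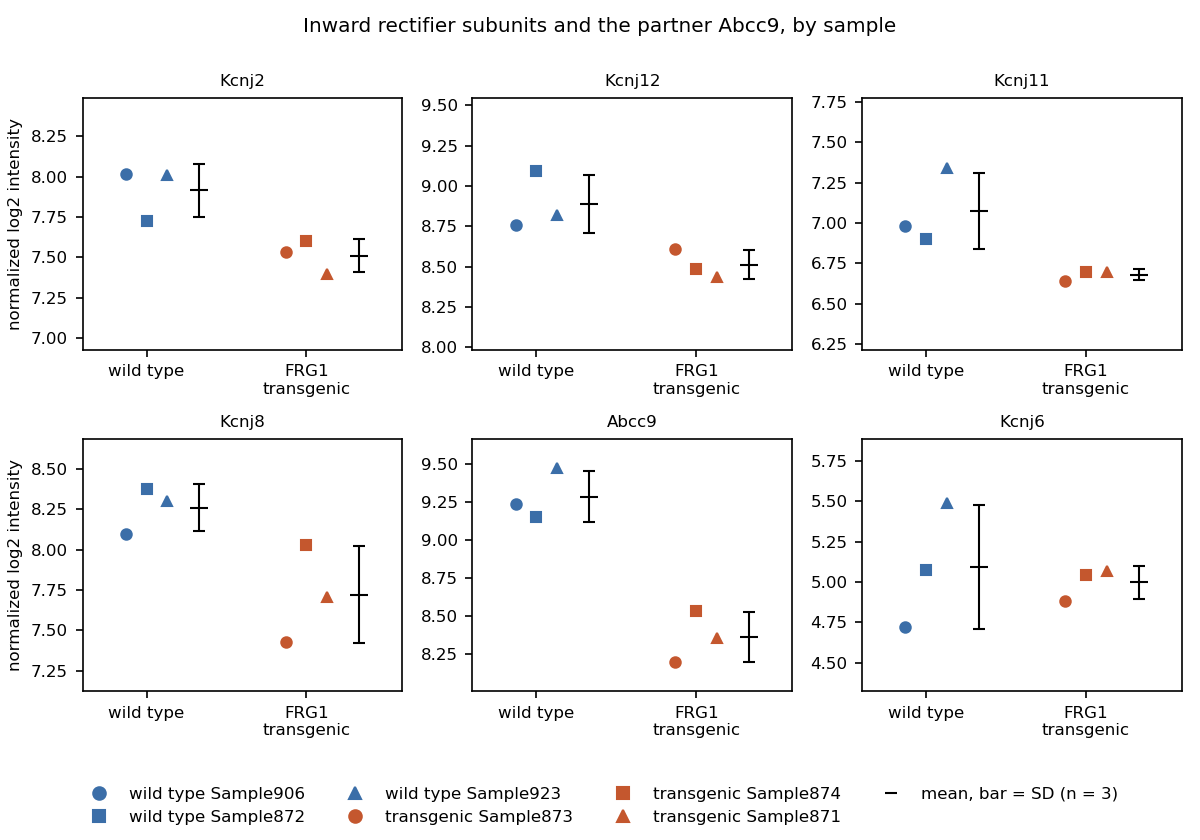
Normalized log2 intensity (y axis, a separate range for each panel) of the 5 inward rectifier genes and Abcc9 in each sample, with the group mean and SD. Transgenic samples lie below wild type samples in every panel except Kcnj6, and the test was passed by Abcc9.

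Of the 4 retained two-pore-domain genes, which encode background leak channels, 0 passed the threshold, beside 14.8% of all retained genes. The class is too small for that count to be read. Kcnk13 lay higher in every transgenic sample, at a log2 fold change of 0.30 ± 0.13 (SE, limma adjusted p = 0.170). Kcnk6, listed here among muscle channels, had a log2 fold change of -0.05 ± 0.13 (SE, 95% interval -0.33 to 0.23), while Kcnk1 and Kcnk2 were at -0.34 ± 0.17 and -0.20 ± 0.12 (SE). All 3 overlapped between the groups.

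Of the 5 retained CLC genes 0 passed either, also too few to be read beside the 14.8% of all retained genes. Clcn1, the main resting chloride channel of muscle fibres, was 5.42, 5.85 and 5.77 in wild type and 5.27, 5.41 and 5.24 in transgenic muscle. The groups did not overlap, by a narrow margin between Sample906 and Sample874, and the log2 fold change was -0.38 ± 0.14 (SE, 95% interval -0.69 to -0.06, limma adjusted p = 0.109). Without Sample906 it passed (-0.51, limma adjusted p = 0.0466). That was 1 of 13 alternative settings, and in the others the limma adjusted p ran up to 0.426. Clcn1 has 1 probe on the array, and it was dim, with raw signals of 63.5 to 85.1. Clcn3, an endosomal chloride-proton exchanger, had 4 retained probes with log2 fold changes between 0.09 and 0.25, none past the threshold. Clcn4, another exchanger of this kind, was at -0.52 ± 0.17 (SE, limma adjusted p = 0.0748), the volume- and voltage-activated channel Clcn2 at 0.43 ± 0.18 (limma adjusted p = 0.151) and the lysosomal exchanger Clcn7 at -0.05 ± 0.14 (limma adjusted p = 0.842), all with overlapping groups. Clcn4 passed in 2 of 13 alternative settings, without Sample872 or without Sample874 (limma adjusted p = 0.0462 and 0.0485).

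The 6 retained TRP genes encode cation channels opened by stretch, lipids, temperature or calcium release. They had the smallest differences of the larger classes, with log2 fold changes between -0.16 and 0.08. Of these, 0 passed and 0 had separate groups, beside 14.8% called and 36.6% separate over all retained genes. All 6 were dim, with wild type means from 4.79 (Trpm4) to 5.73 (Trpm7). The lowest detected values of the arrays were 4.76 to 4.91, and near that level the offset understates fold changes. Trpc1, a candidate stretch- and store-linked channel of muscle, was at -0.09 ± 0.14 (SE, 95% interval -0.40 to 0.22). Trpm7, a magnesium-permeable channel with a kinase domain, was at 0.08 ± 0.17 (SE, 95% interval -0.31 to 0.47), and Trpv2, a stretch-responsive channel also known from macrophages, was at -0.16 ± 0.14 (SE, 95% interval -0.46 to 0.15). Trpm4, a calcium-activated cation channel, sat at the edge of detection. Another 12 TRP genes had no retained probe, and 10 of them, with Trpv4 among them, were above background on no array. The 14 retained channel genes not named in these results had log2 fold changes between -0.37 and 0.13, adjusted p of at least 0.196 by limma and 0 separate groups.

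Taken by tissue in place of family, a list of 24 channel genes known from skeletal muscle had 16 retained members. Of these, 2 rose (Kcne1l and Kcnma1), 2 fell (Kcnc4 and Kcna7) and 12 did not pass, with a median log2 fold change of -0.12. The groups were separate for 9, with transgenic above in 2 and below in 7 (Kcnc4, Kcna7, Scn4b, Kcnj2, Kcnj11, Kcnj12 and Clcn1). Over all retained genes 14.8% were called and 36.6% were separate, 16.9% above and 19.8% below. In the same samples Myh4, Actn3, Ryr1 and Pygm of the muscle identity list fell, with log2 fold changes of -0.45, -0.79, -1.05 and -0.74 by limma. The other 6 of its 10 genes did not pass, and ran from -0.11 for Mb to 0.31 for Des. Further probes ILMN_2733073 of Ryr1 and ILMN_2708303 of Actn3 fell too, at -1.06 and -1.03. Ryr1 probes ILMN_1220181 and ILMN_1258021, each at 0.21, and Myh4 probe ILMN_1236860, at -0.62, did not pass. The denervation and immature muscle list rose in 7 of 9 retained genes, with a summed intensity of 2020 to 2301 in wild type and 5859 to 6906 in transgenic muscle, and among its members were Myh8, the perinatal myosin heavy chain, 4.21 log2 units higher, and Chrng, the fetal acetylcholine receptor subunit, above background on 1 of 3 wild type and 3 of 3 transgenic arrays. Macrophage markers summed to 2307 to 2595 and 4736 to 6094. The part of these shifts in the channel values was not tested.

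The sodium pump, which channels depend on for their gradients, had 7 retained genes, of which 1 rose and 3 fell. Over all retained genes 7.53% rose and 7.23% fell. Atp1b4, a beta-family member of muscle that in mammals is known from the nuclear envelope and not from the pump, was 7.61, 7.69 and 7.83 in wild type and 8.99, 9.17 and 9.12 in transgenic muscle, a 2.61-fold rise (limma adjusted p = 0.000132). Fxyd1, or phospholemman, a pump regulator, was 10.16, 10.23 and 10.29 against 9.51, 9.36 and 9.54, a log2 fold change of -0.75 ± 0.12 (SE, limma adjusted p = 0.0028), and both of its probes fell. The groups of each gene were tight and well apart. Atp1b1 and Atp1b2, the beta subunits that carry the pump to the membrane, had wild type levels 1.44 and 1.43 times those of transgenic muscle (limma adjusted p = 0.0243 and 0.0360). Both calls were lost under some settings, including without Sample873 (limma adjusted p = 0.0963 and 0.0532) and without Sample871 (0.105 and 0.140). Atp1b1 lost its call without Sample872 too (0.0523), and Atp1b2 without Sample906, Sample923 or Sample874 (0.0960, 0.0678 and 0.0982).

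Of 8 retained genes for channel partners and anchors, Abcc9 fell and Rrad rose, or 25% called beside 14.8% of all retained genes. Rrad encodes a small GTP-binding protein that restrains voltage-gated calcium channels and is known to be induced in regenerating and denervated muscle. It was 5.31, 4.71 and 5.28 in wild type, above background on 2 of 3 arrays, and 8.01, 7.66 and 7.71 in transgenic muscle. The log2 fold change of 2.70 ± 0.18 (SE) was far beyond the spread of either group (limma adjusted p = 2.55e-05). Among 13 retained genes for other chloride and anion channels and cotransporters, 1 rose, or 7.69% beside 7.53% of all retained genes. The gene that rose was Clic4, an intracellular chloride channel protein. It was 11.23, 11.16 and 11.02 against 11.89, 11.42 and 11.78, a log2 fold change of 0.56 ± 0.15 (SE, limma adjusted p = 0.0321), and 3 of its 4 probes rose. The Clic4 call was lost without any 1 of Sample906, Sample872, Sample923, Sample873 and Sample871, with adjusted p of up to 0.135.

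**Figure D5:**
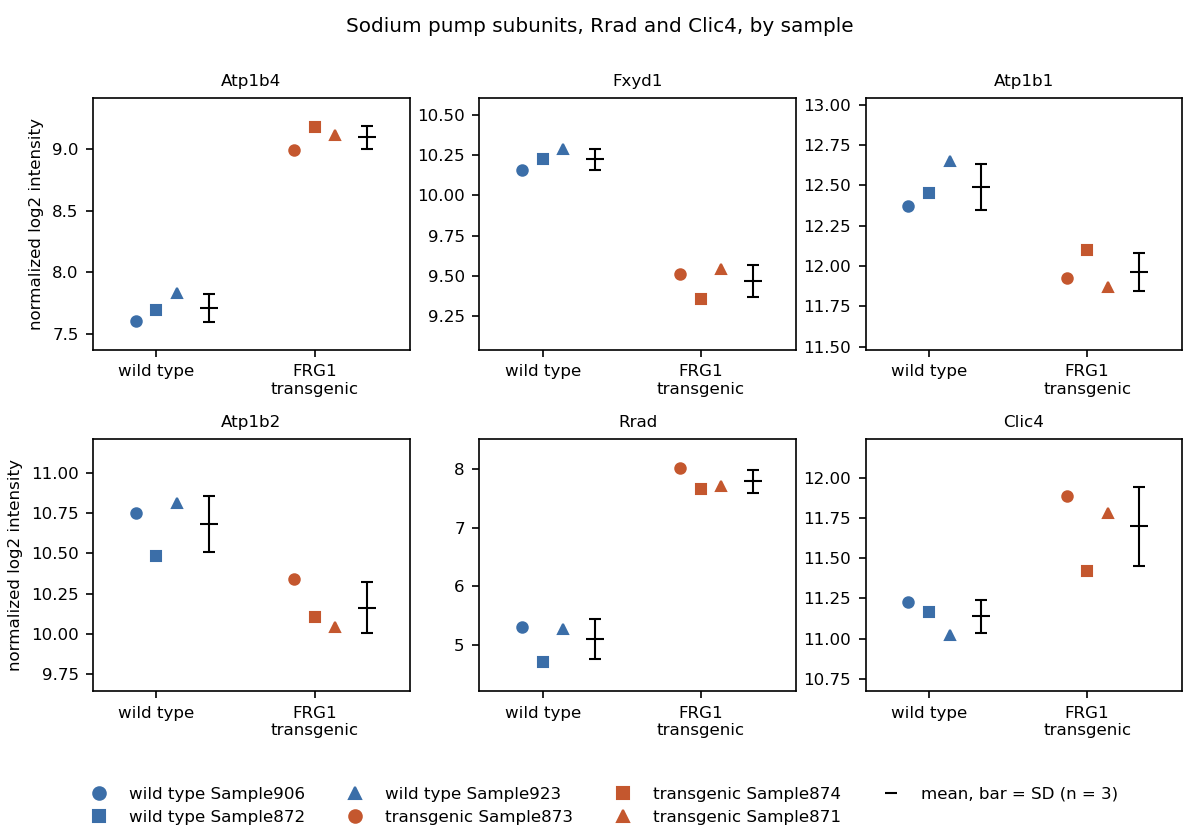
Normalized log2 intensity (y axis, a separate range for each panel) of 4 sodium pump family genes, Rrad and Clic4 in each sample, with the group mean and SD. Atp1b4, Rrad and Clic4 are higher and Fxyd1, Atp1b1 and Atp1b2 lower in every transgenic sample.

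Most of the channel family was not measurable in this tissue on this array. Of the 245 channel probes, 171 were not retained, and 75 genes had no retained probe. Just inside the filter, Kcnc2, a neuronal Shaw-type pore subunit, had raw signals of 52.9, 60.0 and 49.0 in wild type and 46.4, 56.3 and 53.9 in transgenic samples, and Trpm4 had 53.7, 51.3 and 47.5 against 55.4, 56.2 and 49.4. Just outside it, Kcnk5, a leak channel pore, had 42.2, 57.2 and 46.5 against 46.1, 56.8 and 50.6. A second probe just outside, for Clcn3, had 50.0, 42.2 and 39.8 against 51.3, 61.2 and 53.2. For these probes only a limit on the level was measured on some arrays.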

How the data were processed

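Labelled cRNA from 3 wild type and 3 FRG1 over-expressing vastus lateralis samples was hybridised to Illumina mouse bead arrays. The authors deposited 2 tables. Per the file headers, the first pairs an unnormalized intensity with a detection p-value on every array. The second, also deposited, gives processed intensity, for which the submitters' processing notes name lumi (version and settings not given in the sources used). The processed values kept the rank order of the signals, and 33.7% to 33.9% of them lay below 0 with array medians of 5.07 to 5.15, so their scale is linear and what was subtracted is unknown.

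From the deposited intensity, background correction and quantile normalization were done by limma's neqc (limma 3.58.1, R 4.3.3, offset 16, negative controls inferred from detection p), on the log2 scale. Probes with detection p under 0.05 on at least 3 of 6 arrays were fitted with lmFit and eBayes, with group as the only term. Two-sided p-values were adjusted by Benjamini-Hochberg over 19563 probes. The offset understates fold changes of dim probes, and the number of arrays limits precision. Probe symbols came from the platform annotation, updated to RefSeq GRCm38.p6 (29976 probes with 1 symbol, 10 with several, 16646 with none, and 29921 matched); all 245 channel probes matched. The script was tested on simulated data.

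Genes named were every channel gene past the threshold, every retained muscle-channel gene, members seen in one group alone, up to 4 called members of each pathway list and the probes next to the filter. The other genes named were chosen after their values were seen, and the members and lists were chosen with earlier results of these data known. Alternatives were median scaling, no background correction, the processed table, no filter, detection on all 6 arrays, a trended robust prior, averaged probes and leaving out each sample. Promoters came from the RefSeq table of GRCm38.p6.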

Additional observations from a re-analysis of the deposited data

How the results depend on the processing

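Of 13 alternatives, 12 or 13 could be run for each gene. Clca4a, Catsper4, Kcne1l and Kcnc4 passed limma's threshold with the same sign in every one that gave them a value, as did Atp1b4, Fxyd1, Rrad and Abcc9. Kcna6 lost its call in 1 of 13, Kcnma1 in 3 of 13, Scn3a in 3 of 12, Kcna7 in 6 of 13 and Kcnab1 in 8 of 12, and 9 uncalled genes passed in at least 1. The count of channel genes called higher was 6, and it was 3 when probes had to be above background on all 6 arrays, which left 41 genes; leaving out 1 sample gave 4 to 6. The count called lower was 3. It was 1 with median scaling and 5 with no background correction, and leaving out 1 sample gave 1 to 4, the lowest without Sample873. Median scaling moved the middle log2 fold change over probes from -0.02 to 0.10, so its values stand relative to that shift.

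All log2 fold changes that changed sign were of uncalled genes. With median scaling they were Catsper2 (0.19), Clcn7 (0.11), Kcna1 (0.0076), Kcnj6 (0.0137), Kcnk6 (0.14), Scn7a (0.12), Trpc1 (0.0393), Trpm4 (0.0414) and Trpv2 (0.0207), and with the authors' processed table Kcna1 (0.0238). Averaged probes gave -0.0172 for Kcnc1 and 0.0819 for Scn7a. Leaving out 1 sample gave -0.13 to 0.11 for Catsper2, -0.0027 to 0.20 for Clcn3, -0.14 to 0.0529 for Clcn7, -0.23 to 0.0687 for Kcna1, -0.0033 to 0.26 for Kcnc1, -0.28 to 0.10 for Kcnj6, -0.12 to 0.0473 for Kcnk6, -0.10 to 0.064 for Scn7a, -0.18 to 0.0357 for Trpc1, -0.0263 to 0.0304 for Trpm4 and -0.0859 to 0.27 for Trpm7. The causes were not tested. No paired analysis was possible because the groups have no sample number in common, and the slide was not fitted because the array headers name none. Channels close to the negative controls have only a limit on their level.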

Other observations

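Neighbouring genes were set beside the largest increases. Around Catsper4 on chromosome 4, the retained neighbours within 3 places in gene order were Sh3bgrl3, Cep85, Cnksr1 and Zfp593, with log2 fold changes of 0.53 ± 0.14, -0.0014 ± 0.12, 0.48 ± 0.16 and -0.05 ± 0.15 (SE). Sh3bgrl3 passed limma's threshold (adjusted p = 0.0343) and the other 3 did not. Around Kcne1l on chromosome X, Nxt2 and Acsl4 on its 2 sides had log2 fold changes of 0.04 ± 0.11 and -0.37 ± 0.15 (SE), neither past the threshold (limma adjusted p = 0.875 and 0.134). In the Clca cluster on chromosome 3, Clca2, 2 places from Clca4a, was above background on 0 of 3 wild type and 3 of 3 transgenic arrays, and it did not pass the threshold (limma adjusted p = 0.0684). These neighbours were chosen after the increases were seen.

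Ano5, an anoctamin whose mutations cause a muscular dystrophy, had probes that differed. Its brightest probe had a log2 fold change of -0.06 ± 0.12 (SE, limma adjusted p = 0.798) and its other retained probe fell, at -0.53 ± 0.14 (SE, limma adjusted p = 0.0333).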
